A study of Mus musculus with 4 samples.

Results

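The aminoacyl-tRNA synthetases are the enzymes that attach each amino acid to its tRNA. Their transcripts were followed in 4 RNA-seq libraries of primary T cells from C57BL/6NJ mice. The members were chosen by gene name, as the symbols made of 1 amino acid letter followed by ars, with or without a final 1 or 2, together with Eprs, Farsa and Farsb. This gave 37 of the 50600 genes listed, of which 20 encode cytosolic enzymes and 17, whose symbols end in 2, encode mitochondrial enzymes. The labels give a single group with no treatment, so the questions were how high each enzyme stood, how the cytosolic and mitochondrial enzymes compared, and how far the replicates differed. The labels say only T cell, the linked differentiation protocol is named for CD4+ T cells, and the alignment names kept in the headers also carry Th0, activated and 48h. Age is unknown, sex was not collected, and all 4 replicates carry the same donor identifier. The p-values below therefore measure only the spread between these libraries.

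Assigned read pairs totalled from 45110199 in replicate 2 to 127755788 in replicate 3, a 2.83-fold range. All 10 T cell markers, among them Cd3e, Trac and Cd4, lay above 1 CPM (counts scaled to the total assigned read pairs of the library). Markers of other cells that also lay above 1 CPM were Cd8b1 (22.3 TPM on average), Cd68 (7.34), Adgre1 (2.75), Epcam (2.47) and Zbtb46 (2.32). Cd8a was at 0.263 TPM, and Lyz2, S100a8, Itgax, Hbb-bs, Alas2, Klra8 and Krt8 had no count in any library. The part of such cells in the synthetase levels was not tested. Summed TPM of the 5 B cell markers ranged from 3.05 to 5.37 over the libraries and of the 6 myeloid markers from 8.66 to 11.1.

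In the cell each cytosolic enzyme charges tRNA for the ribosomes of the cytosol, and a separate set, encoded in the nucleus and imported, serves the ribosomes inside mitochondria. The glycyl and lysyl enzymes, Gars and Kars, serve both compartments from a single gene, the glutamyl and prolyl activities of the cytosol sit on 1 protein, Eprs, and glutaminyl-tRNA of mitochondria is made by an amidotransferase in place of a synthetase. When charged tRNA runs short, the kinase Gcn2 (Eif2ak4) senses uncharged tRNA and the transcription factor Atf4 activates genes of amino acid supply, several synthetases among them. Stimulated T cells are known for a steep increase in protein synthesis.

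Transcripts of every synthetase were detected. All 37 members exceeded 1 CPM (limma, adjusted p below 0.05), where 47.4% of the 23365 genes tested did, and the lowest single value was 16.8 CPM, for Wars2. Levels between genes are given in TPM, which divides counts by the exon length of each gene before scaling. The median of the 10747 protein-coding genes with a mean of at least 1 TPM lay at 32.7 TPM and served as the reference. All 20 cytosolic enzymes stood above that median gene (limma on log2(TPM + 0.1), adjusted p below 0.05), and so did 10 mitochondrial enzymes, while the other 7 stood below it. Of all genes tested, 22.8% stood above the median gene and 75.4% below. Among the 10747 genes that set the median the shares were 48.3% above and 48.3% below.

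**Figure D1:**
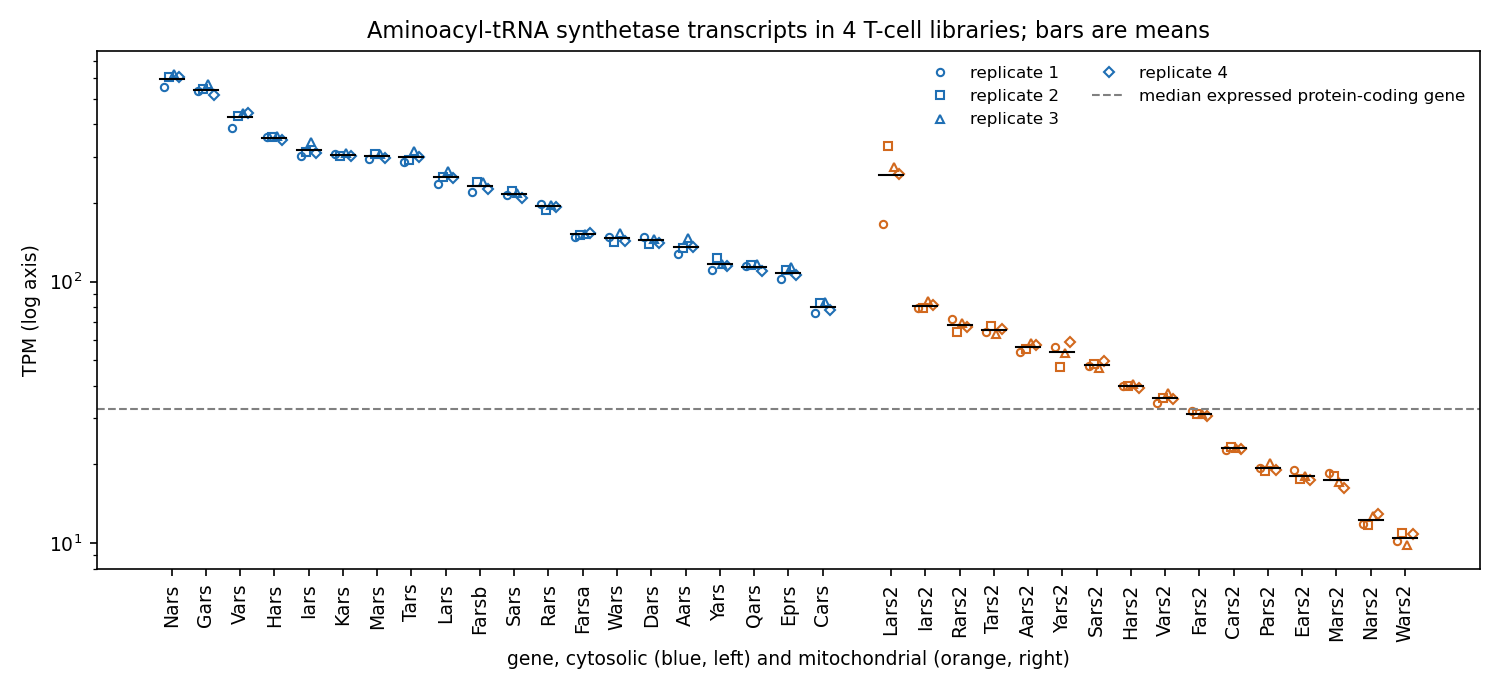
TPM of the synthetases reported here (log axis) in the 4 libraries, with cytosolic enzymes on the left, mitochondrial enzymes on the right, black bars for means and a dashed line at the median expressed protein-coding gene, 32.7 TPM. The cytosolic enzymes lie between 80.0 and 597 TPM on average, and Lars2 is the mitochondrial enzyme with the widest scatter.

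Nars, the cytosolic asparaginyl enzyme, had the highest TPM, an order that depends on the length: in CPM, with no length, Lars2 (829), Vars (694), Eprs (571), Gars (493) and Iars (488) exceeded Nars (458). It measured 555, 607, 621 and 604 TPM in replicates 1 to 4, a mean of 597 ± 28.6 (SD, n = 4), higher than 98.0% of the expressed protein-coding genes. Gars, the glycyl enzyme, followed at 537, 544, 572 and 517 TPM, and its range overlapped that of Nars. Vars, the valyl enzyme, measured 388, 430, 440 and 441 TPM, lower than both in every library. Hars, the histidyl enzyme, was the steadiest of these at 356, 357, 361 and 347 TPM, with no overlap with Vars.

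A plateau of enzymes followed. Iars (isoleucyl, 318 ± 17.3 TPM), Kars (lysyl, 305 ± 3.76), Mars (methionyl, 303 ± 7.38) and Tars (threonyl, 299 ± 12.9; all SD, n = 4) could not be ordered, since each range overlapped the next. Lars (leucyl, 251 ± 11.6 TPM), Farsb (the beta subunit of the phenylalanyl enzyme, 232 ± 9.76) and Sars (seryl, 216 ± 5.31) came next with overlapping neighbours. Rars (arginyl) measured 197, 189, 196 and 194 TPM and stood clear of both Sars above and Farsa below. Farsa (the alpha subunit of the phenylalanyl enzyme, 152 ± 2.54 TPM), Wars (tryptophanyl, 147 ± 5.12), Dars (aspartyl, 144 ± 4.05) and Aars (alanyl, 136 ± 8.02) again overlapped in turn. The cytosolic set ended with Yars (tyrosyl, 116 ± 5.22 TPM), Qars (glutaminyl, 114 ± 3.11), Eprs (108 ± 5.29) and Cars, the cysteinyl enzyme. Cars was the lowest cytosolic enzyme at 75.8, 82.9, 83.5 and 77.7 TPM, still higher than 75.1% of expressed protein-coding genes. Over the whole family, 20 of the 36 neighbours in the order overlapped.

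Several enzymes travel together in the cytosol. The multisynthetase complex holds the enzymes Eprs, Iars, Lars, Mars, Qars, Rars, Kars and Dars, with a median of 222 TPM. The 12 cytosolic genes outside it had a median of 224 TPM but a wider span, from Cars to Nars. All 8 and all 12 stood above the median gene. The complex is held together by 3 scaffold proteins. Eef1e1, also called AIMP3, measured 352, 268, 280 and 300 TPM, with replicate 1 highest and the other libraries in a separate range. Aimp2 measured 165, 174, 163 and 165 TPM, and Aimp1 45.1, 43.7, 40.5 and 41.6 TPM. With the longest transcript as length Aimp2 had 169 TPM, Aimp1 155 and Eef1e1 88.2, and in CPM the 3 were closer, at 80.4, 69.7 and 90.2. The longest Eef1e1 transcript of GENCODE M21 has 2553 bases, but only 1032 exon bases of the gene were counted. Its lower level with that length therefore comes in part from dividing by bases that were not counted. The rest comes from TPM being scaled again when the lengths of all genes change, which also lowers genes of unchanged length. Eef1e1 varied between libraries beyond the dispersion trend (edgeR goodness of fit, adjusted p = 0.0324), whereas Aimp1 and Aimp2 did not pass that test.

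Synthetases fall into 2 structural classes that differ in the fold of the catalytic domain and in the side from which the tRNA is approached. The 9 cytosolic class I genes, led by Vars, Iars and Mars and ending with Yars, Qars and Cars, had a median of 194 TPM. The 10 class II genes, led by Nars, Gars and Hars, had a median of 266 TPM. Both spans overlapped widely. The mitochondrial medians were 35.8 TPM for 9 class I genes and 44.0 TPM for 8 class II genes.

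The mitochondrial enzymes were lower as a set. Their median was 39.9 ± 0.58 TPM, against 224 ± 7.14 for the cytosolic set (SD over 4 libraries), and on the log2 scale the cytosolic median was higher by 2.48 ± 0.04, in 4 of 4 libraries. Summed over members, the cytosolic enzymes held 4875, 5059, 5223 and 4981 TPM. The mitochondrial enzymes held 797, 952, 910 and 892 TPM. Without Lars2 the mitochondrial sums were 632, 622, 636 and 634 TPM, and the SD of the sum was 6.05 without that gene against 65.4 with it. Genes of a set are not replicates, and no p-value is given for the difference between the sets. Fewer cells that express a gene and less of its RNA per cell cannot be told apart in such bulk samples.

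After Lars2, described below, the mitochondrial set was led by Iars2 (isoleucyl, 81.1 ± 2.25 TPM), which overlapped Cars, the lowest cytosolic enzyme. Rars2 (arginyl) measured 68.2 ± 3.46 TPM and Tars2 (threonyl) 65.4 ± 2.07. Aars2 (alanyl, 56.1 ± 2.00), Yars2 (tyrosyl, 53.8 ± 4.84), Sars2 (seryl, 48.2 ± 1.30), Hars2 (histidyl, 39.9 ± 0.58) and Vars2 (valyl, 35.8 ± 1.37) also stood above the median gene. Vars2 was the nearest to the line from above, at 34.2, 35.8, 37.6 and 35.6 TPM (log2 difference 0.13, limma adjusted p = 0.0031). With reference genes of at least 5 TPM it lay below, at -0.23 (limma adjusted p = 0.00024), and with the longest transcript as length it was not called on either side (-0.029, limma adjusted p = 0.34). Fars2, the phenylalanyl enzyme, was the nearest from below at 31.9, 31.1, 31.1 and 30.7 TPM (log2 difference -0.07, limma adjusted p = 0.035), a call that was lost without replicate 2, 3 or 4, with adjusted p of 0.066, 0.13 and 0.13.

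The remaining members lay lower. Cars2 (cysteinyl) measured 23.0 ± 0.29 TPM, Pars2 (prolyl) 19.4 ± 0.65, Ears2 (glutamyl) 18.1 ± 0.78 and Mars2 (methionyl) 17.5 ± 1.02. Of these, Cars2 lay above the median gene with the longest transcript as length (63.8 TPM, log2 difference 0.96) and in CPM (0.23), Mars2 lay above it in CPM (0.47), and Ears2 was not called with the longest transcript (0.012, limma adjusted p = 0.70). Nars2, the asparaginyl enzyme of mitochondria, measured 11.9, 11.8, 12.7 and 12.9 TPM. Wars2, the tryptophanyl enzyme, was the lowest member of the family at 10.2, 10.9, 9.82 and 10.9 TPM, and did not overlap Nars2. The family thus ran from Wars2 at the 24.2 percentile of expressed protein-coding genes to Nars at the 98.0 percentile.

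Compared amino acid by amino acid, 17 activities have a gene for each compartment. The cytosolic enzyme was higher in 4 of 4 libraries in 16 of these 17 pairs, with ratios from 2.17-fold (Yars over Yars2) to 48.1-fold (Nars over Nars2) and a median log2 ratio of 2.19. The sizes depend on the length. The asparaginyl log2 ratio of 5.59 was 4.65 with the longest transcript and 4.19 in CPM. The threonyl ratio of 2.19 was 0.49 and 0.80 in turn. The longest Tars transcript of GENCODE M21 has 4005 bases, against 2636 exon bases counted. An exact sign-flip test over 4 libraries cannot pass a threshold of 0.05, so no p-value is attached to a pair. The asparaginyl pair had log2 ratios of 5.54, 5.67, 5.60 and 5.53. The methionyl pair (Mars over Mars2, log2 4.11 ± 0.09), the tryptophanyl pair (Wars over Wars2, 3.80 ± 0.12) and the valyl pair (Vars over Vars2, 3.56 ± 0.05) followed. This order depends on the length too. In CPM the ratio of Eprs (571) over Pars2 (17.5) exceeded that of Nars (458) over Nars2 (25.0). Mars (302) over Mars2 (57.5) was smaller than both. The histidyl pair was the most even across libraries, at 3.16, 3.16, 3.15 and 3.14.

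Among the narrow ones were the tyrosyl pair (1.11 ± 0.19), the alanyl pair (Aars over Aars2, 1.27 ± 0.04) and the arginyl pair (Rars over Rars2, 1.51 ± 0.05). With the longest transcript as length the tyrosyl and alanyl ratios were 1.98 and 1.96, and the narrowest of the 16 were then the threonyl (0.49) and cysteinyl (0.90) pairs. The threonyl value rests on the Tars transcript length, which exceeds the exon bases counted for that gene. Yars2 was the least even of these mitochondrial genes, with replicate 2 lowest at 47.3 TPM against 53.4 to 58.6 in the other libraries. The leucyl pair was the exception. Lars measured 237, 252, 266 and 249 TPM and Lars2 166, 330, 274 and 257 TPM, so the log2 ratio was 0.52 in replicate 1 and -0.39, -0.04 and -0.05 in replicates 2 to 4. With the longest transcript as length Lars2 was the higher in 4 of 4 libraries, at a mean log2 ratio of -1.55, and in CPM likewise at -1.51.

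**Figure D2:**
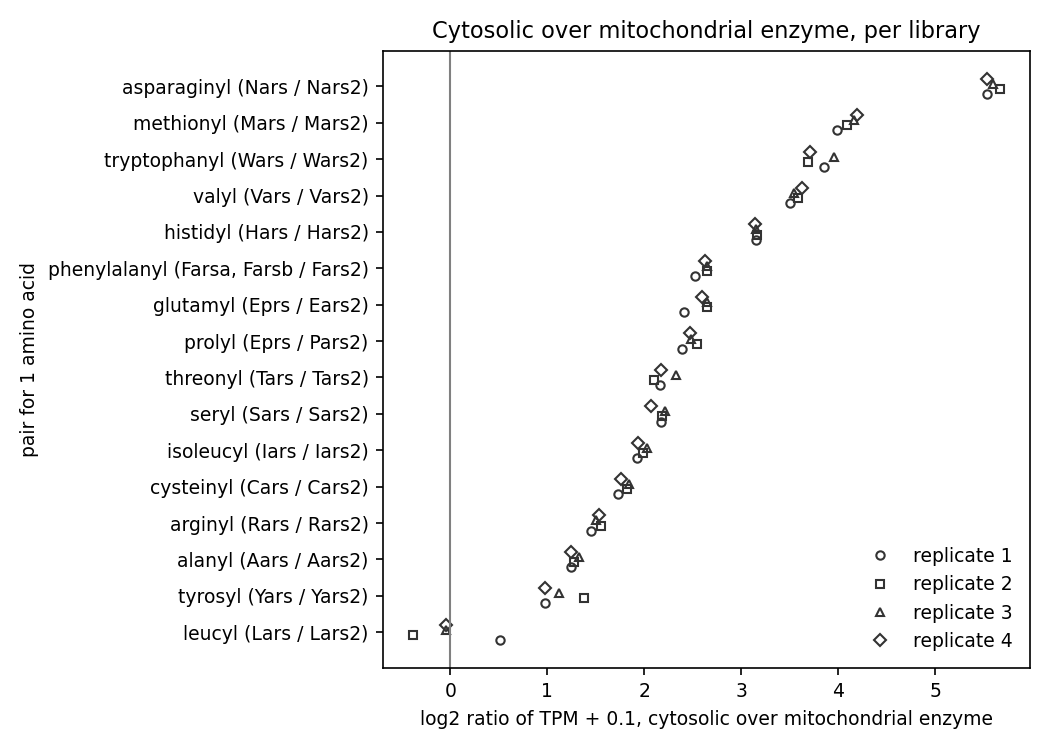
Log2 ratio of TPM + 0.1, cytosolic over mitochondrial enzyme (horizontal axis), for the amino acids reported here that have a gene for each compartment; each symbol is 1 library and the vertical line marks equal levels. The asparaginyl pair stands at 5.59 on average, and the leucyl pair alone has libraries on both sides of the line.

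Lars2 differed from the rest of the family in how it varied. It encodes the mitochondrial leucyl enzyme on chr9:123366927-123462666 (mm10, plus strand), and its counts were 30716, 48225, 111680 and 44466, or 540, 1069, 874 and 833 CPM. Replicate 1 was the lowest and replicate 2 the highest. It was the only member that varied between libraries beyond the dispersion trend (edgeR goodness of fit, adjusted p = 1.2e-06), a call made for 56 of 13279 genes (0.422%), and its biological coefficient of variation was 0.140 where the trend lay at 0.073. Without replicate 1 no member was called. Across the other members the coefficient of variation of TPM ran from 1.23% (Kars) to 8.99% (Yars2), against a median of 5.23% over expressed protein-coding genes and 26.5% for Lars2.

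Lars2 was also the only member that edgeR called between a library and the other 3; Vars joined it in replicate 1 with DESeq2 (adjusted p = 0.030) and in edgeR without replicate 2 (adjusted p = 0.020). In replicate 1 it was lower by a log2 difference of -0.78 ± 0.09 (SE; edgeR quasi-likelihood test, adjusted p = 0.0013), and 9 of 13279 genes (0.0678%) were called in that comparison, all of them lower. The other 36 members ranged from -0.16 (Vars) to 0.13 in replicate 1 and none was called; unadjusted p-values below 0.05 were found for Lars2, Nars and Vars. Replicates 2, 3 and 4 called no member, with 0%, 0.00753% (1 gene, Cdk5rap1) and 0% of all genes called by edgeR. Unadjusted p-values below 0.05 were found for Lars2 and Yars2 in replicate 2, and for no member in replicates 3 and 4. In replicate 2 Lars2 was higher by 0.51 ± 0.18 (adjusted p = 0.55), and without any 1 of the other libraries that difference was called, at 0.32 to 0.64. The lone library in each such test is assumed to vary like the others.

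The genes called with Lars2 in replicate 1 were Gm26917, Gm42418, Gm15564, Gm23935, Gm24187, Gm42031, Mir6236 and Plec. They are named because they complete the count, and were chosen after their values were seen. Gm42418, which RefSeq lists as a synonym of Rn18s-rs5, a pseudogene of ribosomal RNA at chr17:39846354-39848202, measured 1308, 2383, 2403 and 2102 CPM. Its neighbour Gm26917 at chr17:39843013-39846341 measured 499, 1063, 928 and 888 CPM. From highest to lowest, the libraries of Lars2 ran in the order of replicates 2, 3, 4 and 1. Gm26917, Gm23935, Gm24187 and Gm42031 had that order, while Gm42418, Gm15564, Mir6236 and Plec had others. Gm23935 and Gm24187, each 57 bases long, match over 57 bases at 98.2% identity, so they are not separate cases. Replicate 1 was lowest in all, since they were chosen as lower there. The ribosomal RNAs encoded by mitochondria did not follow that order, with mt-Rnr1 at 124, 117, 105 and 103 CPM.

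**Figure D3:**
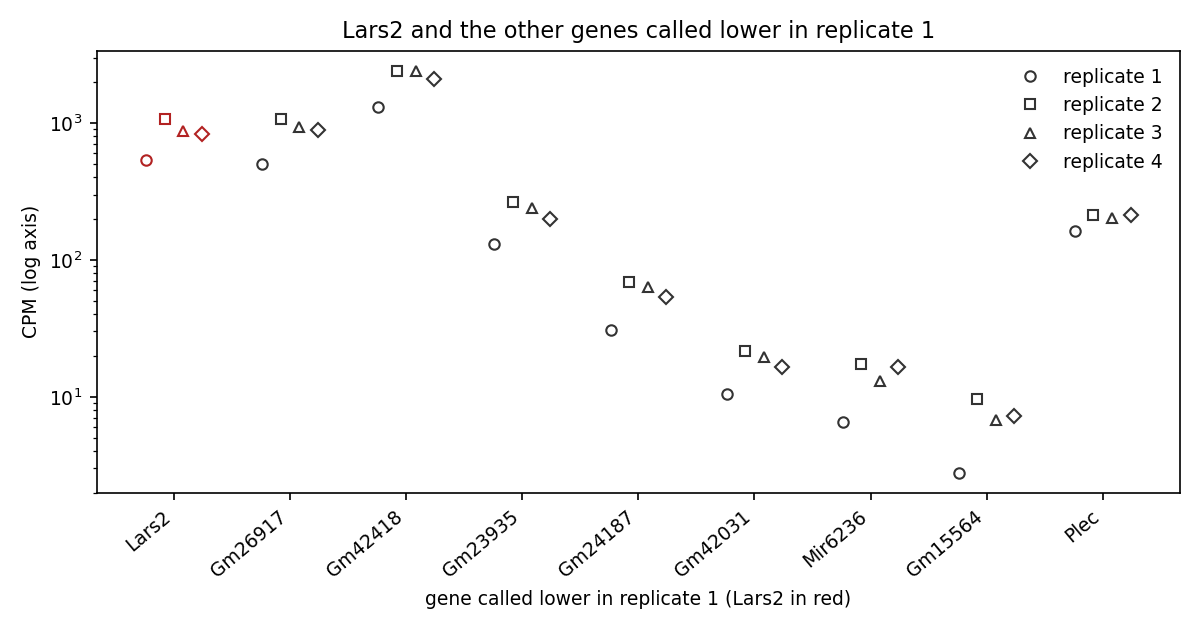
CPM (log axis) in the 4 libraries of Lars2 (red) and the other genes called lower in replicate 1 (black); each symbol is 1 library. The genes were chosen as lower in replicate 1, which is the lowest in each, at 540 CPM for Lars2 and 499 for Gm26917.

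A stretch near the end of the Lars2 transcript is shared with one of these genes. In the longest protein-coding transcript of Lars2 (3894 bases, coding sequence from 200 to 2905), bases 3278 to 3349 lie in the 3′ UTR, at chr9:123462048-123462119 of mm10. They match 72 bases of Gm15564, a noncoding RNA gene at chr16:35966752-35983230, at 98.6% identity with 1 mismatch. No other gene called in replicate 1 shared sequence with Lars2 at 90% identity or more. The sequence below is shown because reads from either gene would read the same here. It is 30 bases of a 52-base identical run, taken from Gm15564, and the capitals mark identity with Lars2.
Gm15564: GAATTCACCAAGCGTTGGATTGTTCACCCA
Gm15564 had 159, 433, 862 and 389 counts, or 2.79, 9.60, 6.75 and 7.29 CPM, far fewer than Lars2. Whether these shared bases or RNA of ribosomal origin had a part in the Lars2 counts was not tested, since the files hold counts per gene and no positions within it.

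RefSeq gives a window from 250 bases before to 50 bases after the transcription start (GRCm38.p6) for 27 of the 37 members. TGATGNAA, where N is any base, is the core of the element bound by Atf4 with C/EBP partners. It was searched on both strands and lay in 5 of 13 cytosolic windows (38.5%) and in 0 of 14 mitochondrial windows. Of all 27025 genes with a window 4.51% held it, and of the 8590 expressed protein-coding genes 2.68%. One match in each of the 5 genes is printed because the motif lay in cytosolic windows and in no mitochondrial window searched. Each is given on the strand of the gene, 5′ to 3′, with the match in capitals, and in all genes but Yars the motif reads on the opposite strand, so its reverse complement is what stands in capitals.
Aars, 9 bases after the start, chr8:111033840-111033869: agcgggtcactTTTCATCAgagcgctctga
Gars, 30 bases before the start, chr6:55037960-55037989: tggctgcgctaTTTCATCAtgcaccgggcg
Iars, 7 bases after the start, chr13:49682126-49682155: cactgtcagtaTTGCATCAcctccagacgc
Tars, 15 bases before the start, chr15:11399655-11399684 (minus strand): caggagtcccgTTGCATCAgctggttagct
Yars, 3 bases after the start, chr4:129189895-129189924: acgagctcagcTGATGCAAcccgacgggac
These 5 genes spanned the cytosolic order, from Gars at 543 TPM to Yars at 116 TPM, and Nars, Vars and Hars, which rank among the highest, had no window and were not searched. A match is a run of letters and not a measured binding site, and these files hold no binding data.

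Other motifs differed less between the sets. CACGTG, the E-box that Myc and its relatives bind, was found in 4 of 13 cytosolic windows (Aars, Farsb, Iars and Tars) and in 1 of 14 mitochondrial windows (Ears2), against 8.09% of all genes and 12.2% of expressed protein-coding genes. CCGGAAG, the core that ETS factors bind, was found in 5 of 13 and 4 of 14 windows (38.5% and 28.6%), against 22.3% of expressed protein-coding genes. The palindromic element of Nrf1 (10 letters), a regulator of nuclear genes for mitochondria, was in none of the 27 windows and in 2.55% of those of expressed protein-coding genes. No match of the composite motif overlapped one of the others.

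The genes that respond to uncharged tRNA were measured beside these. Of the 9 listed, 5 stood above the median gene and 2 below, with a median of 50.9 TPM. Atf4 was the highest at 1078, 1072, 1088 and 1095 TPM, followed by Asns, the asparagine synthetase, at 136, 166, 170 and 159 TPM and by Sesn2, a brake on mTORC1, at 113, 105, 130 and 117 TPM. Asns was lowest in replicate 1, as were Nars, many but not all other cytosolic enzymes and the cytosolic sum (4875 TPM). Neither Asns nor Nars was called. Eif2ak4, the sensor itself, measured 30.2 ± 1.32 TPM and stood below the median gene, as did Impact, which restrains it, at no more than 18.6 TPM in any library. Ddit3, a transcription factor of the same response, measured 26.5, 30.4, 38.6 and 34.0 TPM and was not called on either side.

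Partners of the mitochondrial enzymes had lower medians, 24.5 TPM for the 4 genes of amidation and formylation and 23.4 TPM for 9 translation factors, against 39.9 TPM for the enzymes. With the longest transcript as length the medians were closer, at 37.5 TPM for the translation factors and 40.8 TPM for the enzymes. The amidotransferase that makes glutaminyl-tRNA in mitochondria measured 43.4 ± 1.66 TPM for Gatc, 25.5 ± 1.71 for Gatb and 23.0 ± 0.60 for Qrsl1, its catalytic subunit. Mtfmt, which formylates the initiator methionyl-tRNA, measured 23.5 ± 0.64 TPM. Among these 4 only Gatc stood above the median gene, and the other 3 stood below it. With the longest transcript as length the levels were 31.6 TPM for Gatc, 23.0 for Gatb, 32.7 for Qrsl1 and 30.6 for Mtfmt. Those levels were not tested against the median gene. Of 9 translation factors of mitochondria, 4 stood above and 5 below, from Tufm (elongation factor, 217 ± 2.03 TPM), Gfm1 (elongation factor, 101 ± 3.01) and Tsfm (exchange factor of Tufm, 69.2 ± 3.65) to Mtrf1, Mtif3 and Mtrf1l at 16.8, 12.3 and 11.8 TPM.

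Of the 5 elongation factors of the cytosol, 4 were higher than every synthetase, and Eef1d was not. Eef1a1, which delivers aminoacyl-tRNA, measured 7491, 7518, 7129 and 6969 TPM, and Eef2, which drives translocation, 6426, 6548, 6891 and 6684 TPM. The exchange factor subunits Eef1g, Eef1b2 and Eef1d measured 1086, 1025 and 186 TPM on average, and all 5 stood above the median gene. Xpot, the tRNA exporter, measured 159 ± 7.30 TPM, Ran, the GTPase it works with, 824 ± 39.5 and Nxt1 127 ± 10.3, again all above. Of 13 tRNA maturation genes, 8 stood above and 5 below, from Ssb (319 TPM), Rtcb (318 TPM, the tRNA ligase) and Hsd17b10 (210 TPM, a subunit of mitochondrial RNase P) to Elac1 (10.8 TPM) and Tsen15 (7.97 TPM).

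Synthetase relatives and proofreading genes were lower than every cytosolic enzyme. Dtd1, which removes D-amino acids from tRNA, measured 43.8 ± 2.20 TPM and was the only 1 of 5 above the median gene. Dtd2 measured 15.7 TPM, Prorsd1 14.7, Tarsl2, a second threonyl enzyme of the cytosol, 9.84, and Aarsd1, an editing factor, 3.76 on average. Tarsl2 was thus at 9.53, 10.1, 10.4 and 9.35 TPM where Tars was at 288, 293, 317 and 299 TPM. Of 5 genes for selenocysteine, Sephs2 (178 TPM), Eefsec (74.7) and Secisbp2 (37.6) stood above the median gene, and Sepsecs (14.6) and Pstk (6.35), which convert seryl-tRNA to selenocysteinyl-tRNA, stood below. The Pstk level depends on the length, since its exons sum to 7914 bases and its longest transcript has 1135. With that transcript as length Pstk had 32.2 TPM, a level not tested against the median gene.

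The order of the enzymes was not the order of codon use. Codons of 14882 nuclear coding genes were weighted by mean TPM, giving each amino acid its share of the codons in the mRNA pool. Leucine had the largest share (9.47%) and Lars 251 TPM, whereas asparagine had 3.49% and Nars 597 TPM. Relative to that share, Nars, Hars, Wars and Mars were the highest, at 171, 151, 140 and 131 TPM for each percent of codons. Eprs stood at 14.5 for glutamate, from a level of 108 TPM that was 291 TPM with the longest transcript as length. Across the 20 amino acids Pearson's r was 0.05 and Spearman's rho 0.04 (0.26 and 0.31 with the longest transcript as length), as a description over points that share libraries and, for Eprs, a gene. For mitochondria, leucine was also the most used amino acid, at 15.5% of the 3790 codons of the 13 genes of mitochondrial DNA, and Lars2 the highest enzyme. Pearson's r over 17 amino acids was 0.77 with Lars2 and 0.38 without it, and Spearman's rho 0.34 and 0.21.

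**Figure D4:**
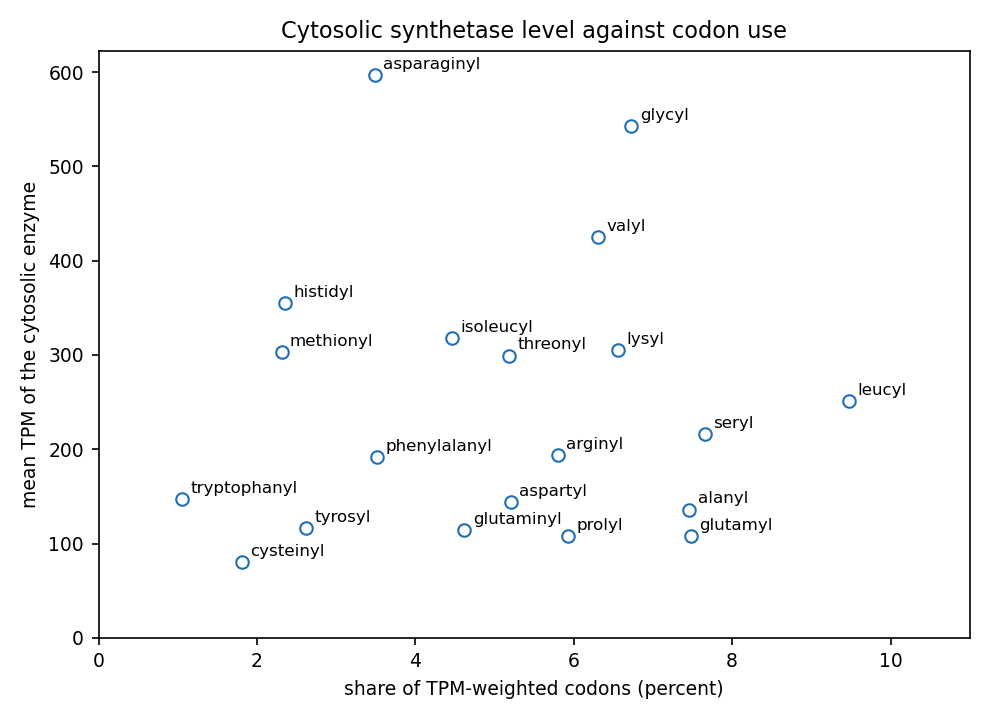
Mean TPM of the cytosolic enzyme (vertical axis) against the share of TPM-weighted codons of its amino acid (horizontal axis, percent); each point is 1 amino acid, Eprs is drawn for both glutamyl and prolyl, and the phenylalanyl point is the mean of Farsa and Farsb. Leucine, with 9.47% of codons, has an enzyme at 251 TPM, and asparagine, with 3.49%, the highest at 597 TPM.

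Members were spread over 15 chromosomes, with 6 on chromosome 1 and 4 each on chromosomes 7, 8 and 18. A protein-coding gene started head to head, on the opposite strand and within 1000 bases upstream (or up to 300 bases of overlap), for 10 of 37 members (27.0%), against 14.5% of 10747 expressed protein-coding genes. These were 4 of 20 cytosolic and 6 of 17 mitochondrial genes. Hars and Hars2 face each other, so each counts as the partner of the other, with 355 ± 5.97 and 39.9 ± 0.58 TPM. Sars2 (48.2 TPM) faces Mrps12, a protein of the mitochondrial ribosome (154 ± 11.1 TPM), and Kars (305 TPM) faces Terf2ip, a telomere protein (21.1 ± 1.24 TPM). Fars2 (31.2 TPM) and its partner Lyrm4 (29.0 TPM) were close, so levels across such pairs ranged from similar to far apart. Counting used strand, per the file headers, and so keeps partners on opposite strands apart.

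The length given to a gene moved single levels more than the replicates did. Summed exon length exceeded the longest protein-coding transcript more than 2-fold in 11 members. With the transcript length the TPM of 7 members was more than 1.5 times higher and of 1 lower. These changes include a rescaling common to all genes, because TPM is scaled again once every length changes. Fars2, with 2125 bases by both lengths, went from 31.2 to 22.7 TPM. Lars2 then had 533 TPM, Gars 518, Kars 453, Vars 419 and Nars 417, so that Nars was no longer the highest. Eprs had 291 in place of 108 TPM, and Tars 143 in place of 299. Transcript lengths came from GENCODE M21 and counts from M13 exons. Tars, with a transcript of 4005 bases against 2636 exon bases, was thus divided by bases that were not counted. Aars shares 1326 bases (14.3% of its exon length) with Exosc6 on the same strand, and Exosc6 had no count in any library. That does not show that Exosc6 was silent, since read pairs in shared bases may have been given to neither gene. The Aars level would then be too low, which was not tested.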

How the data were processed

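Gene counts from 4 T-cell libraries were analysed. Per the file headers, the authors made the deposited counts, which are unnormalised, with featureCounts 1.4.6-p4, one count for each read pair, over GENCODE M13 exons, with both ends mapped and strand option 2, on STAR alignments to mm10. Total RNA is the assay named in the labels, although the library protocol they link is named for polyA+ RNA. Symbols came from GENCODE M21 (99.6% of genes matched). Lengths of the longest transcripts also came from GENCODE M21, and for some genes they exceed the M13 exon length that was counted. TPM used the exon length in the files; CPM used library totals. Levels were tested with limma 3.58.1 on log2 values with a pseudocount of 0.1, over 23365 genes with a count. Libraries were compared with edgeR 4.0.16 (TMM, filterByExpr, 13279 genes), with Benjamini-Hochberg adjustment and a threshold of 0.05. DESeq2 1.42.0 was an alternative. Shared sequence was found with blastn 2.17.0+ among GENCODE M21 transcripts. The scripts were tested on simulated counts. The members and lists were chosen with earlier results of these data known. The rule names all members and, of lists over 6 genes, the 3 highest and 3 lowest; a few items it covers are counted but not reported here. Floors of 3 counts correspond to 0.023 to 0.067 CPM and cover counting error only.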

Additional observations from a re-analysis of the deposited data

Results flagged for a closer look

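Dixon's test for a single outlying library in 4 was applied to 92 values named here, among them the 37 members, and marked 1, where chance marks about 1 in 20. Sephs2, which makes selenophosphate for selenocysteine, stood at 186 TPM in replicate 1 and at 176, 176 and 175 TPM in replicates 2 to 4. No member was marked, Lars2 included.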

How the results depend on the processing

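All 37 members stayed above 1 CPM, all 20 cytosolic enzymes above the median gene and 16 pairs higher on the cytosolic side under every alternative run for them. Against the median gene, 322 of 333 recomputed member values kept their direction and call. Without length correction Mars2 and Cars2 turned to 0.47 and 0.23 (log2). With reference genes of at least 5 TPM, Vars2 and Hars2 turned to -0.23 and -0.073. With the length of the longest transcript Cars2 turned to 0.96, while Ears2 and Vars2 changed sign with no call (0.012 and -0.029; adjusted p = 0.70 and 0.34). Fars2 kept its side but lost its call with filterByExpr (adjusted p = 0.065). Of the 17 mitochondrial enzymes, 12 stood above the median gene in CPM and 8 with the stricter reference. The cytosolic minus mitochondrial log2 difference was 2.31 in CPM, 2.43 over paired members, 2.36 without Gars and Kars and, an alternative chosen after seeing the data, 2.56 without Lars2. Members called in replicate 1 numbered 2 with DESeq2, where Vars joined Lars2 (-0.16, adjusted p = 0.030), and 1 to 2 with a library left out, Vars again joining without replicate 2 (-0.17). In replicate 2, Lars2 alone was called with no filter on low counts (0.50; 1 member), and 1 to 1 member with a library left out. Members that varied beyond the trend numbered 0 to 1 with a library left out, 0 without replicate 1. The cause was not tested. No paired analysis was possible because there is 1 group. Depth did not limit detection of any member: the lowest held 16.8 CPM.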
